A study of Mus musculus with 6 samples.

Results

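The tricarboxylic acid cycle enzymes described here are Cs, Idh3a, Idh3b, Idh3g, Ogdh, Dlst, Suclg1, Sucla2 and Mdh2, taken by gene symbol as 9 of the 16759 genes in the deposited table. All 9 had a single row and passed the filter on low values (1 FPKM or more on average across the 6 libraries), as did 10883 genes in all. RNA came from hind leg muscle of C57BL/6J male mice that were 8 weeks old when the experiment began, with 3 untrained mice (Con) and 3 mice trained on a treadmill (EX), 1 library per mouse. The labels name no allele, transgene or drug for either group. The EX mice ran for 60 min on 5 days a week over 6 weeks, covered 22 km each and were killed 24 h after their last session. Animals were perfused with PBS, and fat between the muscles was taken off. The labels do not name which muscles of the leg were taken, and they give no time of death for the Con mice.

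The cycle runs in the mitochondrial matrix, where it oxidises acetyl groups to carbon dioxide and passes the electrons to NAD and ubiquinone for the respiratory chain. Its flux is set mainly at citrate synthase, at the NAD-dependent isocitrate dehydrogenase and at the 2-oxoglutarate dehydrogenase complex, and skeletal muscle raises this flux many times over during work. Citrate synthase activity is a common marker of mitochondrial content in muscle, and endurance training is known for raising it.

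Most of these transcripts changed little. Idh3a and Dlst were higher in EX, Idh3g was lower, and the other 6 did not pass the threshold, set at 0.05 for the adjusted p of the quasi-likelihood test in edgeR. The called changes were 10.9% and 11.7% for the increases and -8.42% for the decrease, and the 2 subunit genes Idh3a and Idh3g of a single enzyme moved in opposite directions. The 3 calls among 9 members compare with 17.9% of all tested genes called, made up of 9.11% with more and 8.8% with less in EX. These enzymes are abundant transcripts, with counts between 2394 and 15810 in a library, and among the 734 genes at least as abundant as the lowest member (a mean of 175.5 CPM) 41.3% were called. CPM are counts scaled to library size, with TMM factors. The median size of the log2 fold change was 0.061 for the 9 members and 0.098 for all tested genes. In bulk tissue, fewer cells of a type and less RNA per cell cannot be told apart.

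**Figure D1:**
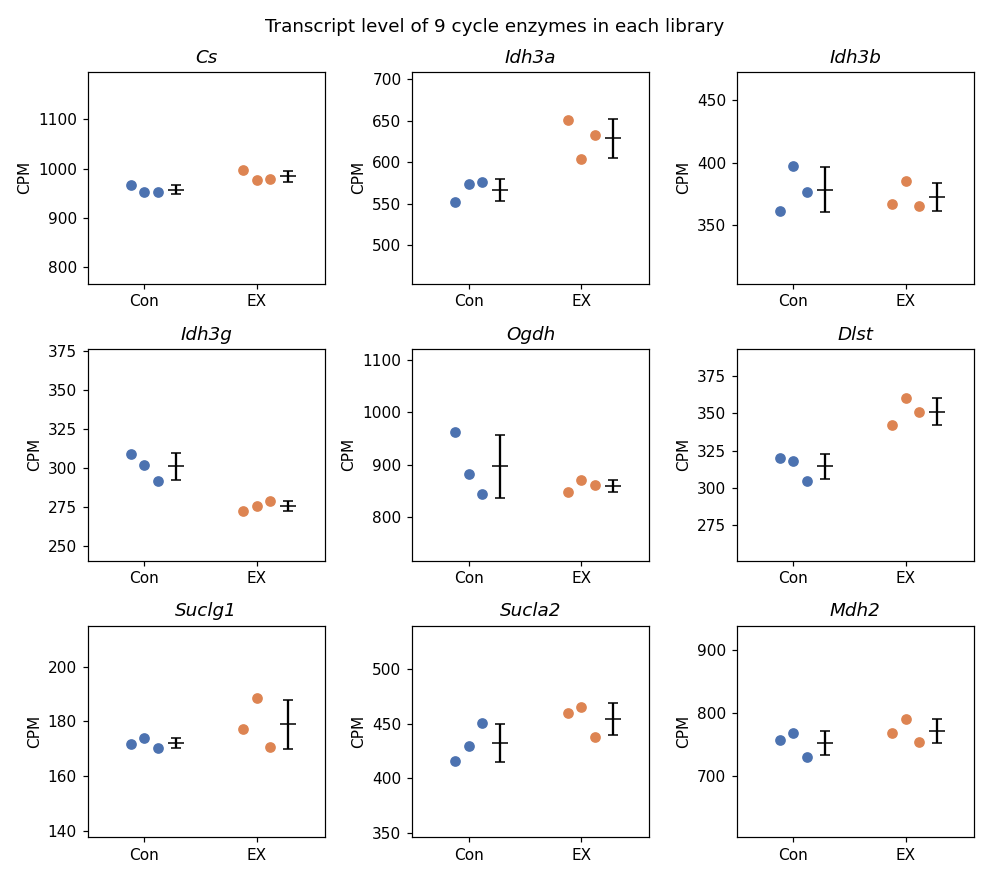
CPM of each cycle enzyme in the 3 Con (blue) and 3 EX (orange) libraries, with the mean and SD in black; each vertical axis spans the same range relative to the Con mean and does not start at 0. Idh3a and Dlst lie higher in every EX library than in any Con library, and Idh3g lies lower.

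Citrate synthase (Cs, gene 12974) joins acetyl-CoA to oxaloacetate and opens the cycle. Its level was 967.1, 952.0 and 952.4 CPM in the Con libraries and 997.2, 977.2 and 978.1 CPM in the EX libraries. The EX values all lay above the Con values, but the gap was narrow, and in TPM (549.1, 542.5 and 546.9 in Con, 541.7, 512.3 and 523.0 in EX) every EX library lay below every Con library. On the log2 scale EX exceeded Con by 0.04 (standard error 0.03, adjusted p = 0.431), and the 95% interval ran from -1.79% to 7.66%.

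The NAD-dependent isocitrate dehydrogenase is built from a catalytic alpha subunit (Idh3a) and from beta and gamma subunits (Idh3b, Idh3g), of which the gamma subunit carries the allosteric site for citrate and ADP. Idh3a (gene 67834) stood at 552.1, 573.6 and 576.0 CPM in Con and at 650.9, 603.6 and 632.4 CPM in EX. Every EX library was above every Con library, with EX replicate 2 closest to them. The Con mean of 567.2 ± 13.2 CPM (SD, n = 3) compared with 629.0 ± 23.8 CPM in EX. This rise of 0.15 on the log2 scale (standard error 0.04, adjusted p = 3.8e-03) had an interval from 5.34% to 16.7%.

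Idh3g (gene 15929) went the other way. It had 309.2, 302.2 and 292.2 CPM in Con and 272.7, 275.6 and 279.0 CPM in EX, so the groups did not overlap, and its EX libraries were the closer together. The log2 difference was -0.13 (standard error 0.04, adjusted p = 0.0148), with an interval from -13.1% to -3.52%. Idh3b (gene 170718) had 361.3, 397.1 and 376.6 CPM in Con and 366.6, 385.5 and 365.3 CPM in EX. These groups overlapped, and the log2 difference of -0.02 (standard error 0.04, adjusted p = 0.738) had an interval from -6.85% to 4.004%. Without EX replicate 1 the adjusted p of Idh3g was 0.058 and without EX replicate 3 it was 0.0502, with log2 fold changes of -0.12 and -0.13.

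The 2-oxoglutarate dehydrogenase complex is made of a decarboxylase (Ogdh), a lipoate-bearing succinyltransferase core (Dlst) and dihydrolipoamide dehydrogenase. Dlst (gene 78920) was at 320.1, 318.3 and 304.9 CPM in Con and at 342.3, 360.1 and 350.7 CPM in EX. All EX libraries were higher, with a mean of 351.0 ± 8.92 CPM against 314.4 ± 8.34 (SD, n = 3). Its log2 difference of 0.16 (standard error 0.04, adjusted p = 2.5e-03) was the highest of the 9, and its interval ran from 5.98% to 17.6%. Ogdh (gene 18293) had 962.9, 882.1 and 844.5 CPM in Con and 847.1, 869.7 and 861.3 CPM in EX. Con replicate 1 stood above all other libraries, and the groups overlapped because Con replicate 3 lay below every EX library. The log2 difference was -0.06 (standard error 0.04, adjusted p = 0.310). Without Con replicate 1 it was -0.01, and without Con replicate 3 it was -0.10 (adjusted p = 0.0695).

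Succinyl-CoA ligase, the step that makes ATP or GTP directly, pairs a common alpha subunit (Suclg1) with a beta subunit specific for ADP (Sucla2) or GDP (Suclg2). Suclg1 (gene 56451) had 171.7, 174.1 and 170.3 CPM in Con and 177.4, 188.6 and 170.8 CPM in EX. The groups overlapped through EX replicate 3, and the log2 fold change was 0.06 (adjusted p = 0.378), with an interval from -1.92% to 10.3%. Sucla2 (gene 20916) had 416.2, 429.9 and 450.7 CPM in Con and 459.6, 465.5 and 438.1 CPM in EX, again overlapping. Its log2 fold change was 0.07 (adjusted p = 0.200), with an interval from -0.37% to 10.9%. Mdh2 (gene 17448), the malate dehydrogenase that closes the cycle, had 757.6, 767.9 and 730.1 CPM in Con and 768.6, 791.0 and 753.4 CPM in EX. These values overlapped as well, and the log2 fold change was 0.04 (adjusted p = 0.517), with an interval from -2.35% to 7.69%. With a library left out, the log2 difference ranged from 0.018 to 0.090 for Suclg1 (without EX replicate 2 and EX replicate 3), from 0.041 to 0.10 for Sucla2 (without Con replicate 1 and Con replicate 3) and from 0.014 to 0.053 for Mdh2 (without Con replicate 3 and EX replicate 3), and none of these was called.

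In all, 6 members had a log2 fold change above 0 and 3 below it, with a median of 0.04 against -0.00093 for all tested genes. In CPM the groups did not overlap for 4 of the 9 (Cs, Idh3a and Dlst with EX above, Idh3g with EX below), against 33.7% of all tested genes. In TPM, counted after the data were seen, they did not overlap for 6 of the 9, against 39.9% of all tested genes. Of these, 5 had EX below (Cs, Idh3b, Idh3g, Ogdh and Mdh2) and 1 had EX above (Dlst), while Idh3a overlapped. Non-overlap was not counted among equally abundant genes alone, in CPM or in TPM. The coefficient of variation among mice of a group ran from 0.90% for Cs in Con to 6.75% for Ogdh in Con.

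**Figure D2:**
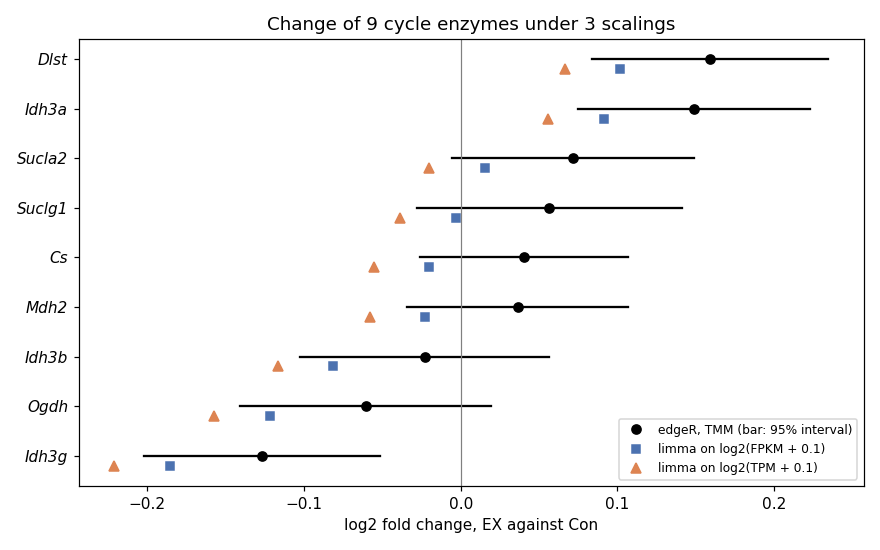
Log2 fold change of each cycle enzyme, EX against Con, from edgeR on TMM-scaled counts (black, bar: 95% interval), limma on log2(FPKM + 0.1) (blue) and limma on log2(TPM + 0.1) (orange). The order of the enzymes is kept while every value shifts to the left in FPKM and TPM, and Cs, Mdh2, Suclg1 and Sucla2 change sign in at least the TPM values.

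The scale on which the libraries are made equal mattered for changes this small. In limma on log2(FPKM + 0.1) the median of all tested genes was -0.06, and in limma on log2(TPM + 0.1) it was -0.09. On these scales the log2 fold change of Idh3a was 0.09 (adjusted p = 0.199) and 0.06 (adjusted p = 0.412), and that of Dlst was 0.10 (adjusted p = 0.0834) and 0.07 (adjusted p = 0.201). Idh3g was lower by a wider margin, at -0.19 (adjusted p = 6.6e-03) and -0.22 (adjusted p = 2.9e-03), and Ogdh was called lower in TPM at -0.16 (adjusted p = 0.0449). Relative to the median of all genes in the same fit, the changes ranged over the 16 alternatives from 0.13 to 0.18 for Idh3a, from 0.14 to 0.18 for Dlst and from -0.15 to -0.11 for Idh3g. Summed over the 9 members, the level was 4818, 4797 and 4698 CPM in Con and 4883, 4917 and 4829 CPM in EX, so that EX was higher. On the TPM scale the same sum was 4242, 4322 and 4257 in Con and 4136, 4064 and 4029 in EX, so that EX was lower. The direction for the enzymes as a whole therefore depends on the scaling, whereas the ratio of a member to another within a library does not.

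Ratios of TPM, a level per length with the same total in each library, compare subunits inside a library and are free of the library scaling. The ratio of Idh3g to Idh3a was 1.16, 1.09 and 1.05 in Con and 0.866, 0.944 and 0.909 in EX. The TPM of the gamma transcript exceeded that of the alpha transcript in each Con library, and the reverse held in each EX library. The mean went from 1.10 ± 0.0525 (SD, n = 3) to 0.906 ± 0.0387, a log2 difference of -0.28, or -17.5%. The exact permutation test, two-sided, gave p = 0.1, the smallest that 3 mice against 3 allow, and 0.2 after adjustment over the 6 ratios.

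The ratio of Idh3b to Idh3a was 1.48, 1.57 and 1.49 in Con and 1.28, 1.45 and 1.31 in EX, also without overlap (log2 difference -0.17, exact permutation p = 0.1, adjusted 0.2). Idh3b to Idh3g overlapped between the groups, with means of 1.38 ± 0.0869 and 1.48 ± 0.0498 (exact permutation p = 0.2, adjusted 0.3, n = 3). Relative to each of the other subunits, the alpha transcript was higher in every EX library than in any Con library.

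Dlst to Ogdh was 0.550, 0.599 and 0.601 in Con and 0.675, 0.691 and 0.677 in EX. All EX libraries were higher, with a log2 difference of 0.22 or 16.8% (exact permutation p = 0.1, adjusted 0.2). For succinyl-CoA ligase, Sucla2 to Suclg1 was 1.503 ± 0.0676 in Con and 1.52 ± 0.0397 in EX (exact permutation p = 0.9, n = 3). Suclg2 to Sucla2 was 0.142 ± 0.0165 in Con and 0.126 ± 0.00522 in EX with overlapping values (exact permutation p = 0.3, n = 3). The transcript of the GDP-specific subunit thus had the lower TPM in both groups. Leaving out a library in turn, the log2 difference of Idh3g to Idh3a lay between -0.31 and -0.24 and that of Dlst to Ogdh between 0.18 and 0.25.

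**Figure D3:**
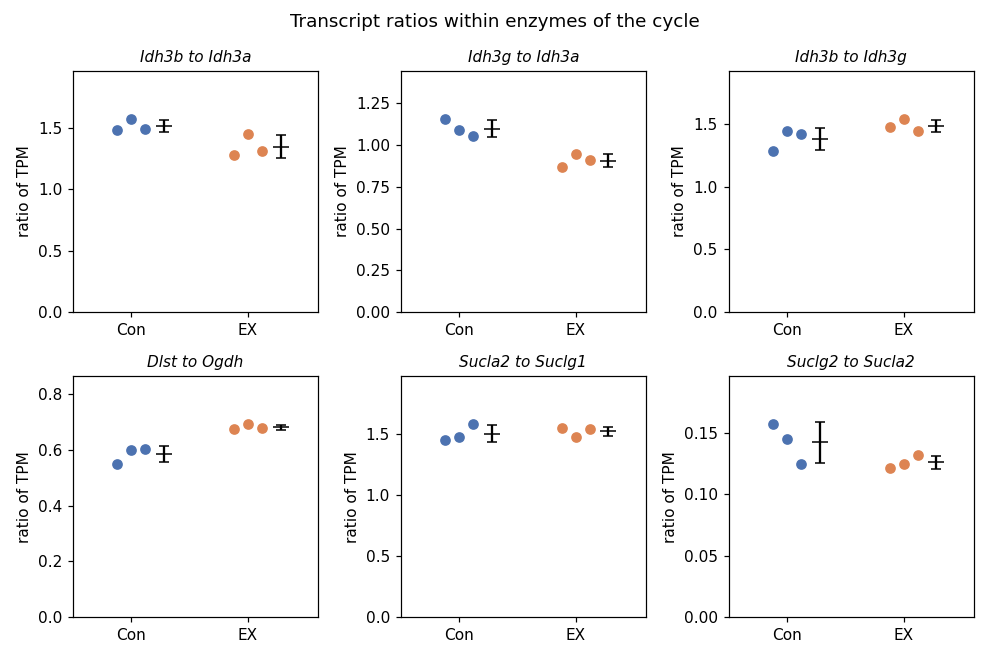
Ratio of TPM for 6 pairs of subunits in each Con (blue) and EX (orange) library, with the mean and SD in black. Idh3g to Idh3a lies above 1 in all Con libraries and below 1 in all EX libraries, and Dlst to Ogdh is higher in every EX library.

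Compared per length, Mdh2 was the most abundant of the 9, at 1160 ± 21.1 TPM in Con and 1114 ± 21.3 TPM in EX (SD, n = 3). Idh3b followed at 610.7 ± 31.4 and 562.8 ± 10.2 TPM, then Cs at 546.1 ± 3.36 and 525.7 ± 14.9 TPM. In Con the fourth place was held by Idh3g at 442.0 ± 8.04 TPM and the fifth by Idh3a at 402.8 ± 12.01 TPM. In EX these traded places, with Idh3a at 419.0 ± 22.5 TPM and Idh3g at 379.2 ± 5.83 TPM. Sucla2 was at 357.7 ± 17.3 and 352.6 ± 10.6 TPM, Ogdh at 326.5 ± 20.8 and 292.4 ± 2.27 TPM, Suclg1 at 238.0 ± 2.41 and 231.8 ± 9.50 TPM, and Dlst at 190.0 ± 3.80 and 199.0 ± 1.96 TPM. Neighbours in this order did not overlap among the 3 libraries of a group, except Sucla2 and Ogdh in Con.

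**Figure D4:**
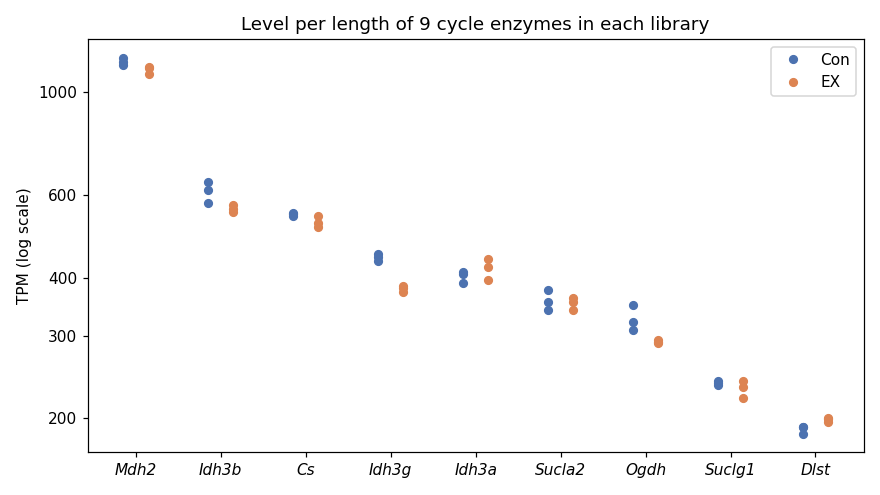
TPM on a log scale for each cycle enzyme in the 3 Con (blue) and 3 EX (orange) libraries, ordered by the Con mean. Mdh2 is the highest and Dlst the lowest in both groups, and Idh3g and Idh3a exchange their order between Con and EX.

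A count divided by its FPKM is proportional to the gene length that the quantification used, which moves when the estimated mix of isoforms moves. Relative to the median gene of each library, this length differed between EX and Con by at most 0.48% among the 9 enzymes (Ogdh), and the groups overlapped for all 9. For Tpm3, a tropomyosin gene taken for scale after its values had been seen, the same measure was -28.9%. With 3 mice against 3 no permutation test of it can go below 0.1, so these values are a description of the 6 libraries.

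Among 8 further mitochondrial enzymes of the cycle, Dld was higher and Idh2 was lower, and 6 were not called. Idh2 (gene 269951), the NADP-dependent isocitrate dehydrogenase, is a separate enzyme that makes NADPH in the matrix. It had 159.0, 151.6 and 154.2 CPM in Con and 99.7, 99.7 and 106.0 CPM in EX. This was the largest change among the cycle enzymes tested here, -0.61 on the log2 scale (standard error 0.04, adjusted p = 1.8e-11), and it was called in all 16 alternatives with values between -0.70 and -0.59. Among the isocitrate dehydrogenase transcripts of the matrix, Idh3a was thus called higher, Idh3g and Idh2 were called lower and Idh3b was not called. The relative size of the Idh3a and Idh3g changes depended on the scaling, at 0.06 and -0.22 in TPM, where Idh3b was at -0.12 (adjusted p = 0.0846).

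Dld (gene 13382), the dihydrolipoamide dehydrogenase that the 2-oxoglutarate and pyruvate dehydrogenase complexes share, had 308.9, 307.5 and 314.3 CPM in Con and 339.2, 327.6 and 338.7 CPM in EX. The log2 difference was 0.11 (standard error 0.04, adjusted p = 0.0283), but only 8 of the 16 alternatives called it. Without a library in turn its adjusted p ranged from 0.0334 to 0.128, and it was past the threshold without Con replicate 1, Con replicate 3 or EX replicate 2. The 4 subunits of succinate dehydrogenase had log2 fold changes of -0.01 (Sdha), -0.0047 (Sdhb), 0.02 (Sdhc) and 0.04 (Sdhd). That of fumarase (Fh1) was -0.0095 and that of Suclg2 was -0.09 (adjusted p = 0.201).

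Of the 5 genes of the pyruvate dehydrogenase complex, which feeds acetyl-CoA into the cycle and includes Dld, 3 were higher and none lower, with a median log2 fold change of 0.11. Pdhb, a subunit of its decarboxylase, was at 0.18 (adjusted p = 1.8e-03) and Pdhx, which anchors Dld, at 0.19 (adjusted p = 6.3e-03). None of these 5 was called in TPM. Of 10 cytosolic forms, transaminases and carriers around the cycle, 9 were tested, of which 3 were higher and 6 not called. The 3 were Mdh1 (0.15, adjusted p = 1.5e-03), Got2 (0.16, adjusted p = 1.3e-03) and the 2-oxoglutarate and malate carrier Slc25a11 (0.17, adjusted p = 1.9e-03), which all serve the malate-aspartate shuttle. Mdh1 had 642.2, 648.0 and 650.2 CPM in Con and 711.2, 723.1 and 719.6 CPM in EX. The shuttle genes Got1 (0.06) and Slc25a12 (0.0013) were not called, and none of the 9 was called in TPM.

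Of 9 enzymes that fill or drain the cycle, 1 was higher, 1 lower and 7 not called. Pcx, the pyruvate carboxylase that makes oxaloacetate, had 100.6, 101.3 and 99.8 CPM in Con and 120.0, 124.9 and 122.1 CPM in EX. The rise was 0.28 on the log2 scale (adjusted p = 1.1e-05). Pck2, the mitochondrial phosphoenolpyruvate carboxykinase, was lower at -0.40 (adjusted p = 0.0137) from a level of 8.58 ± 0.559 CPM (SD, n = 3) in Con. Its adjusted p was 0.0833 with DESeq2, 0.0502 without Con replicate 1 and 0.0526 without EX replicate 3. Of 14 genes for lipoylation, assembly and modification, 12 were tested and Dhtkd1, a relative of Ogdh that acts on 2-oxoadipate, was the single call, at -0.36 (adjusted p = 0.0234). Only 6 of 15 alternatives called it, and it was lost with DESeq2 (adjusted p = 0.107) and without Con replicate 2, Con replicate 3, EX replicate 2 or EX replicate 3 (adjusted p from 0.0754 to 0.113). Of 10 transcription factors and coactivators known for mitochondrial genes, Esrrg was lower at -0.31 (adjusted p = 5.5e-03, but 0.0501 without EX replicate 2), while Ppargc1a (0.10, adjusted p = 0.252) and Esrra (0.06, adjusted p = 0.381) were not called. Of 38 genes named as subunits of respiratory complex I, 5 were higher, with a median of 0.06. Only 1 was called without EX replicate 3, and 3 with DESeq2. The share called was 13.2% for complex I, 33.3% for the 9 cycle enzymes, 25% for the other cycle enzymes and 60% for pyruvate dehydrogenase. It was 33.3% for the cytosolic forms and carriers, 22.2% for filling and draining, 8.33% for maturation and 10% for transcription factors. Among all tested genes it was 17.9%, and among genes at least as abundant as the lowest of the 9 it was 41.3%. Several list genes, such as Pdhx, lie under that level, and no difference between shares was tested.

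**Figure D5:**
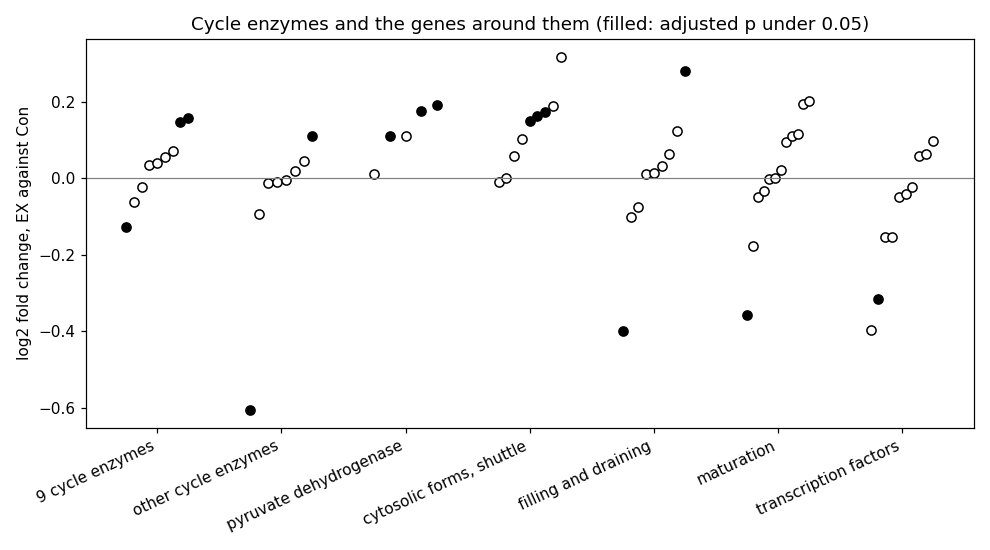
Log2 fold change, EX against Con, of each tested gene among the 9 cycle enzymes and in 6 lists of related genes (filled: adjusted p under 0.05, edgeR). The cycle enzymes lie between -0.13 and 0.16, and Idh2 among the other cycle enzymes is the lowest point at -0.61.

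Markers of fibre types and of other cells differed between the same libraries. The 7 markers of skeletal muscle fibres (Acta1 and Ckm, with Myh4, Myh1, Tnnt3, Tnni2 and Mylpf of fast fibres) summed to between 150480 and 158890 CPM in Con and between 162140 and 170960 CPM in EX. Acta1 (0.22), Tnni2 (0.16) and Mylpf (0.30) were called higher on the log2 scale and Myh1 (-0.09) lower. All 6 slow fibre markers were higher, with a sum of 45.6 to 50.96 CPM in Con and 229.8 to 259 CPM in EX and a median log2 fold change of 4.55. Most of the Con sum was Myl3, with a mean of 42.7 CPM in Con and 56.5 CPM in EX, whereas the slow myosin Myh7 had 0.933, 0.891 and 1.19 CPM in Con and 99.5, 110.6 and 96.7 CPM in EX. All 4 tested fat cell markers of 6 were higher (14.1 to 15.3 CPM in Con against 34.8 to 39.3 CPM in EX), as were 3 of 4 tested macrophage markers of 6 (32.2 to 35.9 against 56.3 to 61.0 CPM) and 3 of 6 tendon and fibroblast markers (599.6 to 643 against 763 to 770.3 CPM). The latter were Col1a1 (0.86), Col1a2 (0.61) and Tnmd (0.85), while Pdgfra (-0.14), Dcn (-0.10) and Scx (0.05) were not called. Of 6 endothelial markers 3 were lower (615 to 632 against 535 to 559 CPM), and of 4 tested Schwann cell markers of 5, 3 were lower (97.3 to 107.7 against 74.7 to 81.1 CPM). Of 5 red blood cell markers 1 was higher (242 to 266 against 264 to 291 CPM). No marker was at 0 in all 6 libraries. The part of fibre type or of these cells in the changes of Idh3a, Idh3g, Dlst and Idh2 was not tested.

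The promoter sequences of the beta and gamma subunit genes are shown because these genes code for partners in the same enzyme and were not higher in EX, unlike Idh3a. Both are from RefSeq on build GRCm38.p6, minus strand, ending just past the start site, and capitals mark the motifs found in them.
Idh3g, chrX:73786896-73787015: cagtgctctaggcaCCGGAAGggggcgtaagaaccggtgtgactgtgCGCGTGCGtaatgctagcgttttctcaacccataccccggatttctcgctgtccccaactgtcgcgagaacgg
Idh3b, chr2:130284450-130284569: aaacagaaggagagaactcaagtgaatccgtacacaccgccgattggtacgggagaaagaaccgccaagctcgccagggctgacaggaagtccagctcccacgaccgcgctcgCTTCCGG

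Promoter windows from 250 bases before to 50 after a start were found for 8 of the 9 enzymes, all but Idh3a, with 6 start sites for Ogdh. Motifs were searched on both strands. CCGGAAG, bound by ETS factors such as GABPA, was in the windows of Idh3b, Idh3g and Dlst, and in 8.86% of all 32851 windows. In Idh3g it began at position -104, and in Idh3b, on the opposite strand, at position -5. CGCANGCG, a core of the NRF1 motif, was in those of Idh3g (position -71), Ogdh and Sucla2, and in 8.21% of all windows, and the fixed form CGCATGCG only in that of Ogdh (1.87% of all). GGGCGG, bound by SP factors, was in those of Cs, Ogdh, Dlst, Sucla2 and Mdh2 and in 35.7% of all. TCAAGGTCA, the full response element of the oestrogen-related receptors, was in none of the 8 genes' windows and in 0.423% of all, and AAGGTCA, which lies within it, in that of Ogdh (4.72% of all).

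The start of Idh3g and its neighbour Ssr4 are 125 bases apart in the RefSeq table, and Srpk3 lies 37 bases from the other end of Idh3g. Ssr4 differed by 0.02 on the log2 scale (standard error 0.05, adjusted p = 0.816) and Srpk3 of 0.04 (adjusted p = 0.685), so neither passed the threshold. Idh3b shares its last 5 bases with Nop56 (log2 fold change 0.0043, adjusted p = 0.970), and Dlst shares 64 bases with Prox2, which was below the filter. Cs, Ogdh and Suclg1 overlap noncoding genes or a pseudogene. Whether the counting used strand is not given in the sources used here, so reads of such overlaps cannot be told apart.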

How the data were processed

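RNA-seq libraries of hind leg muscle from 3 Con and 3 EX mice were analysed. The authors trimmed and filtered paired-end DNBseq reads and matched them with HISAT to GRCm39 according to the methods, whereas the submitters' processing notes name GRCm38.p6, featureCounts, cutadapt and MultiQC. The deposited table holds estimated counts, FPKM and TPM values per gene and library, and the authors' FPKM and TPM are normalizations of those estimated counts. Their 6 columns of group means were not used.

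Counts were rounded, scaled by TMM and tested with edgeR 4.0.16 (glmQLFit, glmQLFTest) in R 4.3.3 for 10883 genes averaging 1 FPKM or more. P-values were adjusted by Benjamini-Hochberg over these genes, with a threshold of 0.05 and no limit on the fold. Totals ranged from 13845362 to 16240431 counts, and the common biological coefficient of variation was 0.0328. Alternatives were DESeq2 1.42.0, limma 3.58.1 on log2(FPKM + 0.1), log2(FPKM + 1) and log2(TPM + 0.1), other filters and scalings, a replicate block, each library left out, and, chosen after seeing the data, FPKM centred on the median gene. Members and lists were chosen with earlier results of these data known. Named genes are the members, 8 further cycle enzymes and called genes of the other lists, with the uncalled ones named chosen after their values were seen. Markers covered muscle and slow fibres, fat, macrophages, endothelium, tendon, red blood cells and Schwann cells. Protein values and some other items are not reported here.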

Additional observations from a re-analysis of the deposited data

How the results depend on the processing

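Of the 9 enzymes, 3 were called in the reported fit. Limma on log2(FPKM + 0.1) and on log2(FPKM + 1) called 1 each (Idh3g), limma on TPM called 2 (Idh3g and Ogdh), and FPKM centred on the median gene, chosen after seeing the data, called 2 (Idh3a and Dlst) with Idh3g at -0.12 (adjusted p = 0.054). With a library left out the count was 2 to 3. Over all genes, 1949 were called, 1228 with DESeq2 and 1211 with centred FPKM, and between 1337 and 1860 with a library left out (lowest without EX replicate 3). TPM gave 340 higher and 1684 lower, log2(FPKM + 0.1) 411 and 1037, log2(FPKM + 1) 411 and 1032, centred FPKM 745 and 466, and totals without the 20 most abundant genes 772 and 1259, against 991 and 958 in the reported fit. Directions that turned were all of enzymes that were not called. With limma on log2(FPKM + 0.1), log2(FPKM + 1) and TPM, Cs was at -0.020, -0.020 and -0.055, Suclg1 at -0.0032, -0.0031 and -0.039, and Mdh2 at -0.023, -0.023 and -0.058. Sucla2 was at -0.020 with TPM, and Idh3b ranged from -0.059 to 0.0098 with a library left out, the highest without Con replicate 2. With a library left out, the log2 difference of the ratio of Idh3b to Idh3a ranged from -0.23 to -0.14, Idh3b to Idh3g from 0.052 to 0.14 (lowest without Con replicate 1), Suclg2 to Sucla2 from -0.26 (without Con replicate 3) to -0.094 (without Con replicate 1), and Sucla2 to Suclg1 from -0.0062 to 0.055, with its sign turned without Con replicate 1.

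Among the lists, limma on TPM called 0 of the pyruvate dehydrogenase genes (3 reported), 0 of the cytosolic and shuttle genes (3), 4 of the filling and draining enzymes (2), 2 of the transcription factors (1) and 3 complex I subunits (5). DESeq2 called 1 filling or draining enzyme, 0 maturation genes (1 reported) and 3 complex I subunits. With a library left out, counts ranged from 1 to 3 for the other cycle enzymes, 2 to 4 for pyruvate dehydrogenase, 3 to 4 for the cytosolic and shuttle genes, 1 to 3 for filling and draining, 0 to 1 for maturation, 0 to 2 for transcription factors and 1 to 6 for complex I, with the lowest for complex I without EX replicate 3.

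With the replicate block, 3 members and 1782 genes were called. Correlations of same-numbered libraries were -0.084, -0.052 and -0.073, so the numbers gave no sign of pairing, and no library correlated best with its own number. Depth limited little here, since the lowest count of a member was 2394. For the members that were not called, changes of a few percent lie within the intervals.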

Other observations

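Across the 6 libraries, the genes most like the mean standardised profile of the 9 enzymes were Bag2, Sars and Puf60, with Pearson correlations of 0.996, 0.989 and 0.989 over 6 libraries that share the same 2 groups. With 10883 genes and 6 points this is a description only, and the mean pools members that changed in opposite directions. Among pairs of the 9 enzymes, the lowest correlation was that of Idh3a with Idh3g (-0.92) and the highest that of Suclg1 with Mdh2 (0.87), again over 6 libraries.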
